A study of Mus musculus with 2 samples.

Results

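The genes described here encode the enzymes of glycolysis, the enzymes that decide what becomes of pyruvate, and the core of the hypoxia response, in samples labelled as mouse bEnd3 endothelial cells. They are 35 genes listed by name for their function, and the list was drawn up with earlier results of these data known. Every probe set annotated to exactly 1 gene, that gene being a member, was taken, which gave 72 probe sets for 33 of the 35 members, out of 18194 genes that had at least 1 such probe set. Gpi1, the gene of glucose-6-phosphate isomerase, and Eno1, the gene of the main enolase, had no such probe set and were not analysed here.

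Glycolysis splits glucose into pyruvate in the cytosol. Pyruvate is then reduced to lactate by lactate dehydrogenase, or enters mitochondria, where the pyruvate dehydrogenase complex turns it into acetyl-CoA and pyruvate carboxylase into oxaloacetate, and the pyruvate dehydrogenase kinases switch the complex off. Endothelial cells draw much of their ATP from glycolysis even when oxygen is present. When oxygen is scarce, prolyl hydroxylases of the Egln family no longer mark the HIF-α proteins for destruction, and the stabilised factors raise the transcription of many glycolytic genes and of genes such as Bnip3, Pdk1 and Ankrd37.

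Each group was represented by 1 Affymetrix array of total RNA labelled as from bEnd3, a BALB/c mouse line derived from microvessels of the cerebral cortex and transformed with polyoma middle T antigen. By their labels, the groups were bEnd3 cells carrying an siRNA against Smad4 and bEnd3 cells carrying a control siRNA, and the measurements below go against the first of these labels. For both groups the labels state that the siRNA came by retrovirus made in PLAT-E packaging cells, infected cells were selected with puromycin, cells grew in DMEM with 15% fetal calf serum, and 2 independent infections were pooled. No oxygen condition was given in the labels, and a pooled infected population is not a clone.

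With 1 array a group there were no replicates, no difference could be set against a spread between replicates, and precision is bounded by having so few arrays. Signals are the deposited MAS5 signals after quantile normalization, in arbitrary units, and log2 ratios are the Smad4-siRNA-labelled sample minus the Control-siRNA sample. A floor was set at the array median, 22.9 once normalized. The brightest probe set by mean log2 signal stood for a gene, and a side below the floor was raised to it, so that such a fold is a lower bound. As a technical error, the SD of log2 ratios between probe sets of 1 gene, pooled over 4543 genes, was 0.47, and it holds no error that arrays or cultures share.

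The labels were checked first. Smad4, the common partner of receptor-activated Smads, had a signal of 1165 in the Smad4-siRNA-labelled sample and 917 in the Control-siRNA sample (log2 ratio 0.35, or -0.07 as deposited), so the fall that the label implies was not seen. For that reason the sample is called the Smad4-siRNA-labelled sample, and "higher" and "lower" give its direction relative to the Control-siRNA sample. Xist, transcribed from the inactive X chromosome of female cells, had a signal of 4495 in the Smad4-siRNA-labelled sample and of 20.7, below the floor, in the Control-siRNA sample. Eif2s3y, a gene of the Y chromosome, had a signal of 0.35, below the floor, in the Smad4-siRNA-labelled sample and of 324 in the Control-siRNA sample. Both were named after their values were seen. These genes differ between the arrays as they do between female and male cells, the line of origin of each array was not tested, and every ratio below compares these samples as they are, whether or not they come from the same line. The endothelial label held in the Control-siRNA sample, where 21 of 22 endothelial markers reached the floor, against 8 of 22 in the Smad4-siRNA-labelled sample. Pecam1, for example, had a signal of 1.46 in the Smad4-siRNA-labelled sample and 1885 in the Control-siRNA sample. The 22 endothelial markers summed to 1123 in the Smad4-siRNA-labelled sample and to 28038 in the Control-siRNA sample. The 12 fibroblast markers summed to 21195 in the Smad4-siRNA-labelled sample, where 9 reached the floor, and to 992 in the Control-siRNA sample, where 2 did. Sums over 10 pericyte and smooth muscle markers were 3256 in the Smad4-siRNA-labelled sample and 646 in the Control-siRNA sample, and those over 7 leukocyte markers were 171 in the Smad4-siRNA-labelled sample and 957 in the Control-siRNA sample. Of the pericyte and smooth muscle markers, 5 were at least 2-fold higher and 1 lower. The lower one, Mcam, had 35.4 in the Smad4-siRNA-labelled sample and 551 in the Control-siRNA sample. Cd68 made up most of the leukocyte sum in the Control-siRNA sample, at 821. Of the other leukocyte markers, 4 were below the floor on both arrays, and Csf1r and Cd14 had log2 ratios of -0.28 and -0.11. No marker had a signal of exactly 0 on either array. Markers below the floor on both arrays have a log2 ratio of 0 because both sides were raised to the floor. The markers differed between the same samples as every result below, their part in the results was not tested, and in such bulk samples fewer cells of a type and less RNA per cell cannot be told apart.

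Of the 32 members that reached the floor on at least 1 array, 16 (50%) were at least 2-fold higher in the Smad4-siRNA-labelled sample, 0 were at least 2-fold lower and 16 lay between. Over all 11574 genes that reached the floor on at least 1 array, 16.0% were higher by at least 2-fold and 15.8% lower by as much. The median log2 ratio of the members was 0.98, and that of all these genes was -0.11. Since the members were chosen with earlier results of these data known, these values describe them and are no independent check. As deposited, without normalization, 13 members were higher and 0 lower beside 15.2% higher and 19.9% lower over all genes, with medians of 0.68 for the members and -0.23 for all genes. Aldoc, Eno2 and Pdk4 reached the floor in the Smad4-siRNA-labelled sample alone, so their direction was fixed by passing the floor. Among the 29 members that reached it on both arrays, 13 were at least 2-fold higher, beside 12.6% of 9467 genes. Car9, which encodes the tumour-associated carbonic anhydrase IX of hypoxic cells, was below the floor on both arrays, with signals of 22.7 in the Smad4-siRNA-labelled sample and 12.7 in the Control-siRNA sample. Near the 2-fold line, Tpi1 and Pdha1 lay just inside at log2 ratios of 1.02 and 1.03, and Mxi1 and Hif1a just outside at 0.94 and 0.89.

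**Figure D1:**
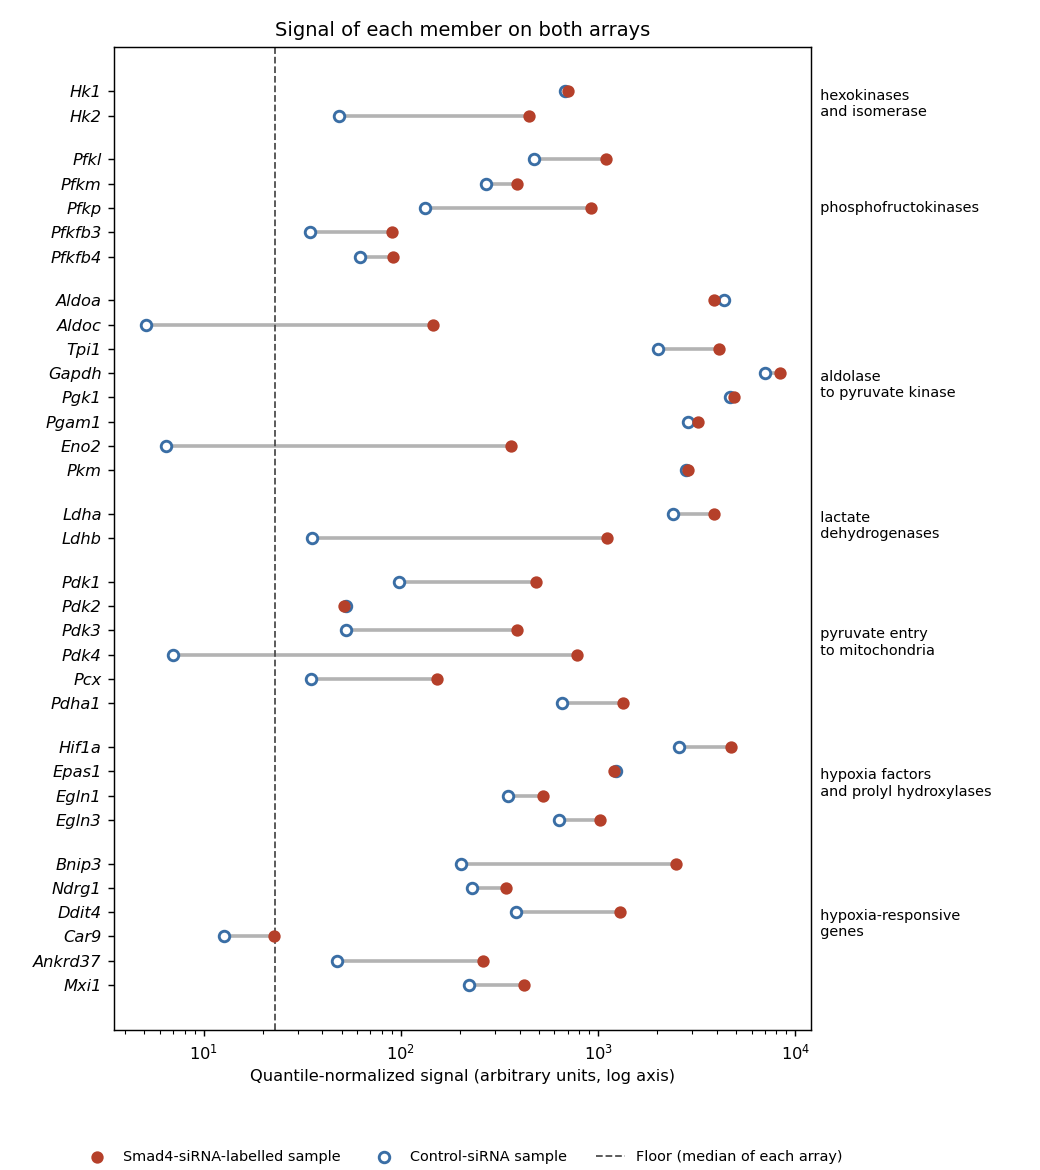
Quantile-normalized signal (arbitrary units, log axis) of the brightest probe set of each of the 33 members, with the Smad4-siRNA-labelled sample as filled points and the Control-siRNA sample as open points, 1 array each, and the floor of 22.9 as a dashed line. The points of Aldoa, Gapdh, Pgk1, Pgam1 and Pkm nearly coincide at high signal, while Aldoc, Eno2 and Pdk4 lie below the floor in the Control-siRNA sample only.

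Promoters of a few members are shown because they hold the core letters of the hypoxia response element, the sequence that HIF-α with its partner Arnt binds. Bnip3 and Hk2 were at least 2-fold higher in the Smad4-siRNA-labelled sample, and Ldha and Pgk1, textbook HIF targets too, lay within 2-fold. The windows run from 250 bases before to 50 bases after the start of the gene, on the gene's own strand, 5′ to 3′, from RefSeq on build GRCm38.p6. Capitals mark the motifs ACGTG and GCGTG on either strand (CACGT and CACGC where they lie on the opposite strand).
Bnip3, chr7:138909457-138909756, minus strand: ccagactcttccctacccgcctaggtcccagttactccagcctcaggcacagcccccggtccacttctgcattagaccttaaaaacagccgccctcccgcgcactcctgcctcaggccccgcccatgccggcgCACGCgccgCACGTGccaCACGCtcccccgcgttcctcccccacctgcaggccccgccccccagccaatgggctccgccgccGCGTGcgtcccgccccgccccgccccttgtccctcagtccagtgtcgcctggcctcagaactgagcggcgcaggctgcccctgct
Hk2, chr6:82774405-82774704, minus strand: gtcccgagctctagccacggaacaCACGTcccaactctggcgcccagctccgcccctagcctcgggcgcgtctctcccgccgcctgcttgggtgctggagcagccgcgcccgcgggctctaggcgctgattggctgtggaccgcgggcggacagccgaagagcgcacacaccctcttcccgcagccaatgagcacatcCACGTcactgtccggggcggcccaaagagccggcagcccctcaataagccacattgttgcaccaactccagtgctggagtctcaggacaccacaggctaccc
Ldha, chr7:46845554-46845853, plus strand: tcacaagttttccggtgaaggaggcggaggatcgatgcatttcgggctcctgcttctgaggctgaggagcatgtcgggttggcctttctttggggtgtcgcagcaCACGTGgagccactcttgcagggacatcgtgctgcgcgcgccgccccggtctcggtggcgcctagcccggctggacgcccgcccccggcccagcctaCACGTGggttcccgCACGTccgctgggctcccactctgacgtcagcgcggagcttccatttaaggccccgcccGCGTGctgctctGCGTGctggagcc
Pgk1, chrX:106186850-106187149, plus strand: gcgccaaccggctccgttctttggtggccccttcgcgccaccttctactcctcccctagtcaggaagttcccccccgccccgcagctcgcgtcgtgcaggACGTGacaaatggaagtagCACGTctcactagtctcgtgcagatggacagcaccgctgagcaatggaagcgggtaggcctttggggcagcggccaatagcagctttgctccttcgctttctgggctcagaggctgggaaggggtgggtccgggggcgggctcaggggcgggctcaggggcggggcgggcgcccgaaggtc

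The Bnip3 window held 5 matches, the Hk2 window 2, the printed Ldha window 7 and the Pgk1 window 2. Ldha has another window, at a different start and not printed, which held 2 matches, both GCGTG. The hexamer CACGTG, which MYC and other E-box factors also bind, holds ACGTG on both strands and counts as 2 of these matches wherever it occurs, as it does 1 time in Bnip3 and 2 times in Ldha. There were 50 windows for 33 of the 35 members, some genes having several starts. Epas1 and Ndrg1 had no window, while Gpi1 and Eno1, which had no probe set, did. Of the member windows, 39 (78%) held at least 1 match. Of all 32851 windows of the same length, 43.8% did. The median GC content was 61.5% in the member windows and 52.7% in all windows. Among members at least 2-fold higher, 16 of 20 windows (80%) held a match, and among members between, 19 of 25 (76%) did. Counted by gene, a window with a match was found for 14 of 16 members at least 2-fold higher. Such a window was found for 14 of the 14 members between that had a window, and for 46.7% of all 27025 genes. The motif ACGTG alone was found for 8 of 16 members at least 2-fold higher (50%) and for 13 of 14 members between (92.9%). Over all genes ACGTG was found for 21.8%. A match is a description of letters in this window and not evidence of binding.

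The first steps of glycolysis differed between isoenzymes. Hk2, the hexokinase that insulin, HIF and MYC induce, had a signal of 447 in the Smad4-siRNA-labelled sample and 48.6 in the Control-siRNA sample and was 9.20-fold higher. Hk1, the constitutive hexokinase, had signals of 704 in the Smad4-siRNA-labelled sample and 683 in the Control-siRNA sample, a log2 ratio of 0.04, with -0.33 in its other probe set and -0.34 for the brightest as deposited. The difference of the log2 ratios, Hk2 minus Hk1, was 3.16, against a technical SD of 0.66 for a difference between genes.

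The 6-phosphofructokinase genes all had log2 ratios above 0, of unequal size. Pfkp, the platelet-type subunit, had signals of 916 in the Smad4-siRNA-labelled sample and 133 in the Control-siRNA sample, 6.90-fold higher, and its next probe set was 3.28-fold higher. Pfkl, the liver-type subunit, had signals of 1101 in the Smad4-siRNA-labelled sample and 475 in the Control-siRNA sample, a 2.32-fold difference that was 0.84 on the log2 scale as deposited and so under 2-fold there. Pfkm, the muscle-type subunit, had signals of 390 in the Smad4-siRNA-labelled sample and 269 in the Control-siRNA sample (log2 ratio 0.53). The bifunctional enzymes of the Pfkfb family set the level of fructose-2,6-bisphosphate, the strongest activator of phosphofructokinase. Pfkfb3, the isoform that drives glycolysis in sprouting endothelium, was 2.61-fold higher, with signals of 89.8 in the Smad4-siRNA-labelled sample and 34.4 in the Control-siRNA sample. The other Pfkfb3 probe set fell below the floor there and gave a bound of 1.14-fold. Pfkfb4 had signals of 90.9 in the Smad4-siRNA-labelled sample and 61.9 in the Control-siRNA sample (log2 ratio 0.55).

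From aldolase to pyruvate kinase, most of the abundant housekeeping enzymes were nearly level, Tpi1 was just over 2-fold higher, and the brain-type and neuron-type isoenzymes were higher. Aldoa, the main aldolase, had a signal of 3861 in the Smad4-siRNA-labelled sample and 4331 in the Control-siRNA sample, and its 5 probe sets had log2 ratios from -0.55 to 0.41, with both signs. All of them carry the suffix for sequence shared with other transcripts. Aldoc, the brain-type aldolase, had signals of 146 in the Smad4-siRNA-labelled sample and 5.10 in the Control-siRNA sample and was at least 6.36-fold higher, while its other probe set was below the floor on both arrays. Tpi1, triose-phosphate isomerase, had signals of 4099 in the Smad4-siRNA-labelled sample and 2016 in the Control-siRNA sample. Its 3 probe sets had log2 ratios from 1.02 to 1.29, so it was just over 2-fold higher, and the brightest was at 0.79 as deposited.

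Gapdh, Pgk1, Pgam1 and Pkm catalyse successive or near-successive steps of the lower pathway, and all lay within 2-fold. Gapdh was covered only by the control probe sets along its transcript, which had log2 ratios of 0.24, 0.27 and 0.31 at the 5′ end, in the middle and at the 3′ end. Its brightest set had signals of 8318 in the Smad4-siRNA-labelled sample and 7022 in the Control-siRNA sample, and the ratio thus hardly changed along the transcript. Pgk1, phosphoglycerate kinase, had signals of 4869 in the Smad4-siRNA-labelled sample and 4649 in the Control-siRNA sample. Its probe sets ran from 0.07 to 0.56 on the log2 scale, and the brightest was at -0.06 as deposited. Pgam1, phosphoglycerate mutase, had 3227 in the Smad4-siRNA-labelled sample and 2872 in the Control-siRNA sample (log2 ratio 0.17, or -0.08 as deposited). Pkm, pyruvate kinase, had 2848 in the Smad4-siRNA-labelled sample and 2793 in the Control-siRNA sample (log2 ratio 0.03, or -0.22 as deposited). The sign of these 3 genes thus depended on the scaling. Eno2, the neuron-type enolase, had signals of 363 in the Smad4-siRNA-labelled sample and 6.46 in the Control-siRNA sample, at least 15.9-fold higher by its only probe set.

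The lactate dehydrogenase subunits were far apart. Ldhb, the heart-type subunit whose tetramer favours the use of lactate, was 31.4-fold higher, with signals of 1114 in the Smad4-siRNA-labelled sample and 35.5 in the Control-siRNA sample. Its other 3 probe sets had signals from 725 to 1034 in the Smad4-siRNA-labelled sample, were all below the floor in the Control-siRNA sample and gave bounds of at least 31.7-fold to 45.2-fold. Ldha, the muscle-type subunit and a HIF target, had signals of 3885 in the Smad4-siRNA-labelled sample and 2409 in the Control-siRNA sample, 1.61-fold higher by its only probe set. The difference of the log2 ratios, Ldhb minus Ldha, was 4.28.

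**Figure D2:**
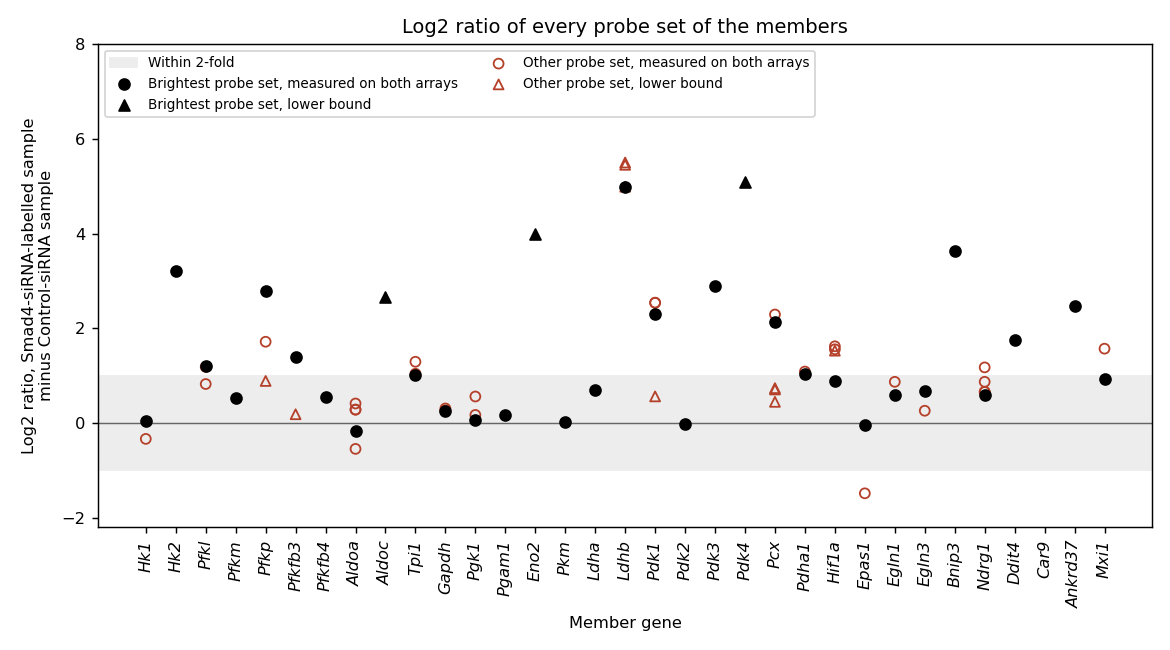
Log2 ratio, Smad4-siRNA-labelled sample minus Control-siRNA sample, of each member's probe sets that reached the floor on at least 1 array, with the brightest set in black, other sets open, triangles for lower bounds and grey for within 2-fold. The 4 sets of Ldhb lie between 4.97 and 5.50, while the 5 sets of Aldoa lie on both sides of 0 and those of Epas1 at -0.04 and -1.48.

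Of the genes that govern the entry of pyruvate into mitochondria, 5 of 6 (83.3%) were at least 2-fold higher, beside 16.0% over all genes. As deposited 4 were, beside 15.2% over all genes. The kinases of the Pdk family phosphorylate the pyruvate dehydrogenase complex and shut it. Pdk4, the kinase of fasting and fatty acid use, had signals of 779 in the Smad4-siRNA-labelled sample and 7.01 in the Control-siRNA sample and was at least 34.1-fold higher, the largest value among the members by brightest probe set. Pdk3 was 7.39-fold higher, with signals of 390 in the Smad4-siRNA-labelled sample and 52.7 in the Control-siRNA sample. Pdk1, the kinase that HIF induces, had signals of 482 in the Smad4-siRNA-labelled sample and 97.8 in the Control-siRNA sample, 4.92-fold higher, and its 3 probe sets measured on both arrays agreed, with log2 ratios from 2.30 to 2.54. Pdk2, the most widely expressed kinase, had 51.6 in the Smad4-siRNA-labelled sample and 52.7 in the Control-siRNA sample, a log2 ratio of -0.03 that was 0.13 as deposited. Pdk1, Pdk3 and Pdk4 exceeded Pdk2 in log2 ratio by 2.33, 2.92 and at least 5.12.

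The substrate of these kinases and the enzyme of the other route of pyruvate were higher too. Pdha1, the catalytic E1α subunit that the kinases phosphorylate, had signals of 1336 in the Smad4-siRNA-labelled sample and 656 in the Control-siRNA sample. Its 2 probe sets had log2 ratios of 1.03 and 1.09, and of 0.65 and 0.74 as deposited, so its place past 2-fold rested on the scaling. Pcx, pyruvate carboxylase, had signals of 153 in the Smad4-siRNA-labelled sample and 34.9 in the Control-siRNA sample, 4.38-fold higher. A control probe set at the 3′ end of its transcript was 4.89-fold higher, whereas the 3 sets farther upstream were dim, at 31.2 to 38.1 in the Smad4-siRNA-labelled sample and under the floor in the Control-siRNA sample, with bounds under 2-fold. Pdk3, Pdha1 and Pgk1 lie on the X chromosome. The 364 X-linked genes measured had a median log2 ratio of 0.01. Of these genes, 75 (20.6%) were at least 2-fold higher and 40 (11.0%) lower by that much, beside 16.0% and 15.8% over all genes.

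None of the hypoxia factors and prolyl hydroxylases reached 2-fold by its brightest probe set. Hif1a, whose protein is controlled mostly by degradation, had signals of 4741 in the Smad4-siRNA-labelled sample and 2558 in the Control-siRNA sample, 1.85-fold higher. Its other 2 probe sets measured on both arrays had log2 ratios of 1.56 and 1.62, so the call depended on the probe set. Epas1, the HIF-2α gene that endothelium expresses strongly, had signals of 1203 in the Smad4-siRNA-labelled sample and 1234 in the Control-siRNA sample (log2 ratio -0.04). Its dimmer probe set was 2.80-fold lower, with 28.0 in the Smad4-siRNA-labelled sample and 78.3 in the Control-siRNA sample, the only one of 57 member probe sets measured on both arrays that was at least 2-fold lower. The difference of the log2 ratios, Hif1a minus Epas1, was 0.93, against the technical SD of 0.66. Egln1, the main oxygen sensor of the family, had signals of 523 in the Smad4-siRNA-labelled sample and 348 in the Control-siRNA sample (log2 ratio 0.59). Egln3, a prolyl hydroxylase that HIF itself induces, had 1022 in the Smad4-siRNA-labelled sample and 636 in the Control-siRNA sample (log2 ratio 0.68), with 0.26 in its other probe set, which was at -0.03 as deposited.

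Genes that hypoxia induces were higher in 3 of the 5 measured cases (60%), beside 16.0% over all genes. Bnip3, a mitochondrial protein that promotes mitophagy and whose promoter is printed above, had signals of 2488 in the Smad4-siRNA-labelled sample and 201 in the Control-siRNA sample and was 12.4-fold higher. Ankrd37, a small ankyrin-repeat protein, was 5.55-fold higher, with signals of 262 in the Smad4-siRNA-labelled sample and 47.2 in the Control-siRNA sample. Ddit4, an inhibitor of mTORC1 that hypoxia and other stresses induce, had 1289 in the Smad4-siRNA-labelled sample and 384 in the Control-siRNA sample and was 3.36-fold higher. Each of these genes had 1 probe set, so no second measurement stood beside it. Mxi1, an antagonist of MYC, had signals of 422 in the Smad4-siRNA-labelled sample and 220 in the Control-siRNA sample, and its probe sets lay at log2 ratios of 0.94 and 1.57. Ndrg1, a stress gene often used as a hypoxia marker, had 341 in the Smad4-siRNA-labelled sample and 228 in the Control-siRNA sample, and its 5 probe sets had log2 ratios from 0.58 to 1.17.

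**Figure D3:**
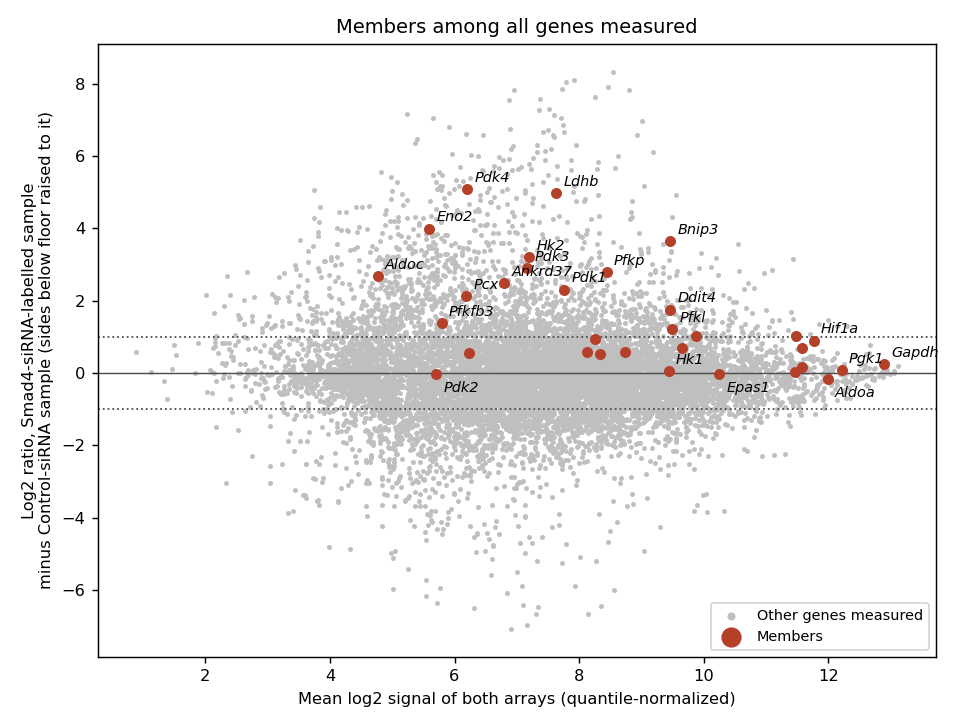
Log2 ratio, Smad4-siRNA-labelled sample minus Control-siRNA sample with sides below the floor raised to it, against the mean log2 signal of both arrays, for the 11574 genes measured (grey) and the 32 members among them (red), with dotted lines at 2-fold. No member lies under the lower dotted line, and of the bright members Gapdh and Pgk1 lie near 0 at 0.24 and 0.07, while Hif1a and Tpi1 lie at 0.89 and 1.02.

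Where a member had several probe sets, they mostly went the same way. Of 16 members with more than 1 probe set measured on both arrays, 13 had every log2 ratio above 0, Hk1 and Aldoa had both signs, and Epas1 had every ratio below 0. Of the 57 member probe sets measured on both arrays, 51 had a log2 ratio above 0 and 25 were at least 2-fold higher. The same shares over all genes and over all probe sets were not computed, so these counts have no background beside them. A member with several probe sets counts several times among the 57. Probe sets of a gene share its RNA and its array and are not replicates. Across 9 settings of scaling, floor and probe set choice, 8 members were at least 2-fold higher in every one: Hk2, Pfkp, Pdk1, Pdk3, Pdk4, Bnip3, Ddit4 and Ankrd37. Ldhb and Eno2 were so in each of the 8 settings that measured them, since the setting without suffixed probe sets leaves them with none. Another 8 were so in only some of the settings that measured them, 15 in none, and no member was at least 2-fold lower in any. The share of all genes at least 2-fold higher in every setting was not computed. In single settings the share of all genes at least 2-fold higher ran from 12.1% to 19.5%.

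Other genes of these pathways were counted on lists that stand beside the members and were likewise chosen with earlier results of these data known. Of 105 such genes, 85 reached the floor on at least 1 array, of which 32 (37.6%) were higher by at least 2-fold, 6 (7.06%) were lower and the other 47 lay between, with a median log2 ratio of 0.43. Over all genes the shares were 16.0% and 15.8%. These lists, like the members, do not stand alone: some of their genes, such as Lox, also serve collagen in fibroblasts, whose markers were higher on the same array. Any part of this in the counts was not tested.

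Further hypoxia-responsive genes were higher in 18 of 30 cases (60%) and lower in 1 (3.33%), beside 16.0% and 15.8% over all genes. The 1 lower gene was Pgf (log2 ratio -2.07), named after its value was seen. Lox, lysyl oxidase, was at least 225-fold higher, with signals of 5142 in the Smad4-siRNA-labelled sample and 2.98 in the Control-siRNA sample. Tmem45a was at least 33.6-fold higher, with signals of 769 in the Smad4-siRNA-labelled sample and 3.60 in the Control-siRNA sample. Angptl4, an inhibitor of lipoprotein lipase, was higher by a log2 ratio of 4.32, with signals of 1425 in the Smad4-siRNA-labelled sample and 71.1 in the Control-siRNA sample. Vegfa, the main angiogenic HIF target, had 423 in the Smad4-siRNA-labelled sample and 129 in the Control-siRNA sample, 3.27-fold higher, with 1.97-fold in its other probe set. Among partners and regulators of HIF, 2 of 12 (16.7%) were higher, a share near the 16.0% over all genes, and 0 were lower. As deposited 2 were lower, and with the median over probe sets 0 were higher. Arnt2 was 16.7-fold higher, with signals of 495 in the Smad4-siRNA-labelled sample and 29.6 in the Control-siRNA sample, although its other probe sets were near the floor. Arnt, the common HIF-β partner, was 4.19-fold higher, with 337 in the Smad4-siRNA-labelled sample and 80.3 in the Control-siRNA sample. Log2 ratios in its remaining 4 probe sets were 2.44, 0.95, 0.67 and -0.02, so the call depended on the probe set. Vhl, which targets hydroxylated HIF-α for destruction, had probe sets at log2 ratios of 0.92 and 0.73.

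Carriers of sugar and monocarboxylates were higher in 2 of 7 cases (28.6%) and lower in 0, beside 16.0% and 15.8% over all genes. The count of higher carriers ran from 0 with the median over probe sets to 4 with the floor at the 25th percentile. Slc2a1, the glucose carrier GLUT1 of the blood-brain barrier and a HIF target, was among those between, with signals of 729 in the Smad4-siRNA-labelled sample and 1025 in the Control-siRNA sample. Its 3 probe sets had log2 ratios of -0.49, -0.47 and -0.80, so they lay on the other side of 0 from Hk2 and Pfkp. Slc2a3 (GLUT3) was at least 2.88-fold higher by its brightest probe set, with 65.8 in the Smad4-siRNA-labelled sample and 10.5 in the Control-siRNA sample. Another Slc2a3 probe set gave a bound of 1.22-fold, and its remaining probe sets were below the floor on both arrays. Slc16a1 (MCT1), a lactate carrier, was 2.71-fold higher, with 1530 in the Smad4-siRNA-labelled sample and 566 in the Control-siRNA sample. Slc16a3 (MCT4), the lactate exporter that hypoxia induces, was below the floor on both arrays.

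The remaining subunits and phosphatases of the pyruvate dehydrogenase complex lay mostly within 2-fold. Of 9 genes, 0 were at least 2-fold higher and 1 (11.1%) was lower, with a median log2 ratio of -0.59. Over all genes 16.0% were higher and 15.8% lower. The 1 lower gene, Lias, which makes the lipoyl cofactor, had signals of 408 in the Smad4-siRNA-labelled sample and 955 in the Control-siRNA sample, 2.34-fold lower. Among the other glycolytic isoenzymes and regulators, 1 of 8 was higher (12.5%) and 3 were lower (37.5%), beside 16.0% and 15.8% over all genes. These calls rested on the floor: with it at the 75th percentile, 0 were higher and 0 lower, and among genes measured on both arrays 1 was lower. Fbp1, fructose-bisphosphatase of gluconeogenesis, was at least 7.47-fold lower, with 8.87 in the Smad4-siRNA-labelled sample and 171 in the Control-siRNA sample. Tigar, a p53 target that lowers fructose-2,6-bisphosphate, was 3.98-fold lower, with 34.4 in the Smad4-siRNA-labelled sample and 137 in the Control-siRNA sample. Pfkfb2, the heart-type bifunctional enzyme, was 2.29-fold higher by its brightest probe set, with signals of 92.7 in the Smad4-siRNA-labelled sample and 40.4 in the Control-siRNA sample. Its other 3 probe sets were below the floor in the Smad4-siRNA-labelled sample, and 2 of them, above it in the Control-siRNA sample, had log2 ratios of -0.30 and -0.37, on the other side of 0.

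Glycogen genes were higher in 7 of 13 cases (53.8%) and lower in 0, beside 16.0% and 15.8% over all genes. Ppp1r3b, which targets protein phosphatase 1 to glycogen, was 12.4-fold higher, with signals of 344 in the Smad4-siRNA-labelled sample and 27.8 in the Control-siRNA sample. Of the phosphorylases that break glycogen down, Pygl was at least 8.62-fold and Pygb 4.64-fold higher. In the pentose phosphate pathway, the branch of glycolysis that makes NADPH and ribose, 2 of 7 genes were higher (28.6%) and 1 was lower (14.3%). The share of lower genes was thus near the 15.8% over all genes. H6pd, the enzyme of the endoplasmic reticulum, was 7.60-fold higher, with 340 in the Smad4-siRNA-labelled sample and 44.8 in the Control-siRNA sample. Pgd was 2.10-fold higher and 0.69 on the log2 scale as deposited. Taldo1, transaldolase, was 3.24-fold lower, with 652 in the Smad4-siRNA-labelled sample and 2112 in the Control-siRNA sample.

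**Figure D4:**
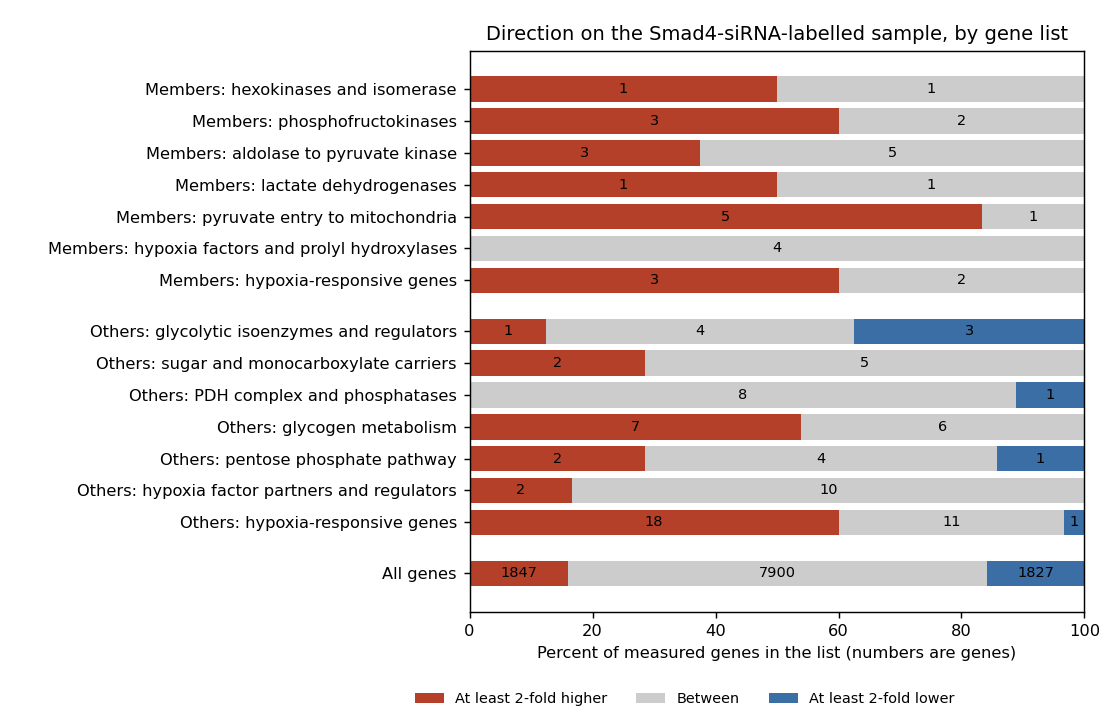
Share of the measured genes of each list (percent, numbers are genes) that were at least 2-fold higher (red), between (grey) or at least 2-fold lower (blue) in the Smad4-siRNA-labelled sample relative to the Control-siRNA sample, with all 11574 measured genes at the bottom. Genes of pyruvate entry to mitochondria had 5 of 6 higher, and the further pyruvate dehydrogenase genes had 0 of 9 higher.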

How the data were processed

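Total RNA of bEnd3 cells was measured on 1 Affymetrix array a group, each from 2 pooled infections, per the labels. The authors deposited linear signal intensity per probe set from MAS5 (per the submitters' processing notes). Its version and scaling target, and any detection calls, were not given in the sources. The deposited table held 45101 probe sets, from 0.0110 up to 9783 (median 24.9) in the Smad4-siRNA-labelled sample and to 9247 (median 21.0) in the Control-siRNA sample. How the arrays were scaled to each other stays unknown.

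Log2 signals were quantile normalized over all probe sets (Python 3.11.15, numpy 2.4.6, pandas 2.3.3). Genes were named from GEO's platform annotation, whose symbols can be old and were updated through Entrez identifiers to RefSeq (GRCm38.p6). Probe sets with 1 gene numbered 34958, and 10143 with several or none were left out, including 3 shared by Gapdh and its pseudogenes. Control probe sets with 1 gene were kept, as Gapdh has no others.

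A call means at least 2-fold with sides below the floor raised to it. No test between groups was made, as each has 1 array. Members and lists were chosen with earlier results of these data known. All members are named, and from each other list up to 3 called genes farthest from 0, with Slc2a1, Slc16a3, Vegfa and Vhl. Pgf, Xist and Eif2s3y were named after their values were seen.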

Additional observations from a re-analysis of the deposited data

How the results depend on the processing

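The count of members at least 2-fold higher was 16 and ran from 12 to 18 over the alternatives, the count at least 2-fold lower was 0 in all of them, and the median log2 ratio ran from 0.68 (as deposited) to 1.08 (lowess trend removed, fraction 0.3). The lowest count, 12 of 24, came without suffixed probe sets, which left fewer members measured, and 16.0% of all genes were higher there. The highest count, 18 of 32, came with the lowess trend removed, where 17.6% of all genes were higher. After centring 15 of 32 members were higher, beside 19.5% of all genes. The scaling moved the median of all genes from -0.11 to -0.23 as deposited and 0.04 after centring. The members' median lay above it by 1.09 after quantile normalization and by 0.91 in both other cases. A floor at the 25th percentile gave 16 of 33 higher, beside 15.7% of all genes. One at the 75th gave 13 of 29, beside 12.1%. Adding the 25th percentile as a pseudocount gave 16 of 32, beside 17.5% of all genes, and the median over probe sets gave 16 of 32, beside 12.5%. Alternatives added after the data were seen were leaving out control probe sets, genes measured on both arrays and a floor at 4 times the median. In that order they gave 16 of 31, 13 of 29 and 13 of 29 members higher, beside 16.0%, 12.6% and 13.4% of all genes. Single genes moved most where the Control-siRNA side was dim: with the floor at the 75th percentile Aldoc was at 0.19 and Pcx at 0.26, and with the median over probe sets Pfkfb3 was at 0.79 and Pcx at 0.74, all under 2-fold. Hif1a, at 0.89, was at 1.54 with that median and at 1.62 without suffixed probe sets, past 2-fold. Over all settings the count of higher genes ran from 14 to 20 for the further hypoxia-responsive genes, 4 to 7 for glycogen, 0 to 4 for carriers, 0 to 3 for HIF partners and regulators, 1 to 2 for the pentose phosphate pathway and 0 to 2 for the other glycolytic isoenzymes, whose count of lower genes ran from 0 to 4. No paired analysis was possible because each group has 1 array, and for the same reason no replicate could be left out.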
